A study of Drosophila melanogaster with 2 samples.

Results

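The microRNA genes of Drosophila melanogaster were compared with the genome-wide binding map of Bicoid fused to enhanced green fluorescent protein. They were all genes whose symbol begins with mir-, with bantam and let-7, which the Release 6 (dm6) annotation used here lists as mir-ban and mir-let7. This gave 262 hairpin genes of 17873 annotated genes. Hairpins no more than 10 kb apart were counted once, as 1 locus, which left 200 loci, 198 of them on the main chromosome arms. The other 2 loci are the copies of mir-10404 on a ribosomal DNA scaffold, where no peak was listed, and they were left out of all shares.

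The binding data were 2 ChIP-seq libraries, replicates 1 and 3, of whole embryos of both sexes collected from 0 to 24 hours after laying. Both came from 1 transgenic line, labelled strain 1T-GFP, that stably carries bcd with a C-terminal GFP, and GFP was immunoprecipitated from sonicated chromatin of 200 to 800 bp. The 2 libraries form 1 group with no second condition. A control experiment that the labels name was not analysed here.

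A microRNA is a short RNA cut from a hairpin in a longer primary transcript, and it represses messenger RNAs that pair with its seed, the bases near its 5′ end. Hairpins lie in introns of protein-coding genes, which then share the host's promoter, or in noncoding transcripts with a promoter of their own. Bicoid is a homeodomain protein translated from maternal RNA at the anterior pole, where it forms a gradient and activates segmentation genes. MicroRNAs of the early embryo clear maternal RNAs and act on Hox genes, and later ones act in nerve, muscle and growth control.

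Mature sequences of microRNAs described below are printed here, with seed bases 2 to 8 in capitals. The first set holds 6 microRNAs that lie beside entries among the 10 with the highest signal, and bantam. They were read from the RefSeq annotation and genome of Release 6. mir-279 and mir-996 are shown because they lie beside the entry with the highest signal near any hairpin. They share their seed, and both restrain the formation of carbon dioxide sensing neurons.
mir-279-3p: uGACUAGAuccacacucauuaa
mir-996-3p: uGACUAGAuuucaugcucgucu
mir-282-5p: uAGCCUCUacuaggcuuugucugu
mir-92a-3p: cAUUGCACuugucccggccuau
mir-92b-3p: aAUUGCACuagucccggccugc
mir-9a-5p: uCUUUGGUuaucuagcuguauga
mir-ban-3p: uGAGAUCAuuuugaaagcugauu
The mir-2 family is shown because its hairpins lie at several loci with one seed, of which some had entries and some did not. Its seed pairs with the K box, a motif in the tails of Notch target and cell death messengers.
mir-2a-1-3p: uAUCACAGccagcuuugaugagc
mir-2b-2-3p: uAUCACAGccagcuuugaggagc
mir-2c-3p: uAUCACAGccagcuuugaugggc
mir-13a-3p: uAUCACAGccauuuugaugagu
mir-13b-2-3p: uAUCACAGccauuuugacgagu
mir-11-3p: cAUCACAGucugaguucuugc
The axial patterning microRNAs of the Hox complexes are shown as well, since no entry of the authors' optimal peak set lay within 5 kb of them.
mir-10-5p: aCCCUGUAgauccgaauuuguu
mir-iab-4-5p: aCGUAUACugaauguauccuga
mir-iab-8-5p: uUACGUAUacugaagguauaccg

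The windows that reach 100 bp to each side of the summits beside 3 loci follow, on the plus strand of dm6. Capitals mark the words TATAAA or TAATCC where a search of both strands found them. TAATCC is the consensus site of the Bicoid homeodomain, and TATAAA is the core promoter word. The first lies at 3R:29214351-29214551, at the start of lncRNA:CR31044, the primary transcript of mir-279 and mir-996.
mir-279 upstream summit: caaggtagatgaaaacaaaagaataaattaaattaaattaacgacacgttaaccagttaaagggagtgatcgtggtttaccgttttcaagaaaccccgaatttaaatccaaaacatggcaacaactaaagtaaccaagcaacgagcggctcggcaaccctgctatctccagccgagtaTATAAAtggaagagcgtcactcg
The second lies at 3L:3250186-3250386, near the start of lncRNA:CR43626, the transcript that holds mir-282.
mir-282 upstream summit: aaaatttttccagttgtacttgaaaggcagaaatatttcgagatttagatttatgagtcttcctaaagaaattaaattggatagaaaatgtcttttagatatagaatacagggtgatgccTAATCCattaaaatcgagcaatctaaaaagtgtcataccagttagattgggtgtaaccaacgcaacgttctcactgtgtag
The third lies at 3R:25646921-25647121, downstream of mir-92a and near an internal start of its host jigr1.
mir-92a downstream summit: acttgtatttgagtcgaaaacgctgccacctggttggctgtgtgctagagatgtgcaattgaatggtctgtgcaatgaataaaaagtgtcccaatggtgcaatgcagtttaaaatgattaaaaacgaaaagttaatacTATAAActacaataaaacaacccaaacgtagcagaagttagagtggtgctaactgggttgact

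Of the 198 loci, 142 lay inside a protein-coding gene on either strand. A locus counted as inside a gene when any of its hairpins lay inside. In 2 of the 142, the clusters from mir-972 to mir-979 and from mir-982 to mir-984, only some hairpins lay inside. Both of these had an IDR summit within 5 kb. The other 56 comprised 29 inside a noncoding RNA gene and 27 not wholly inside any other gene, here called outside genes. Some of these 27 overlap a gene in part, as mir-11182 does CG5726. With any overlap counted, 144 loci would be at protein-coding genes and 54 elsewhere. Among the 260 hairpins on the main arms plus the 2 on the scaffold, 122 lay in an intron of a protein-coding host, 23 overlapped a coding exon, 21 an untranslated region and 96 had no such host. Of these, 34 hairpins filled at least 80% of an intron, as mirtrons do. An entry of the authors' optimal peak set lay within 5 kb of 14 of the 34 (41.2%), against 106 of all 260 hairpins on the main arms (40.8%). The hairpins were 50 to 174 bp long, with a median of 92 bp. Clusters held 89 hairpins in 27 loci, the largest with 12 hairpins on the X chromosome from mir-972 to mir-979.

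Peaks came from the authors' lists in dm6. The optimal IDR set held 6054 entries. IDR, the irreproducible discovery rate, is a measure of how alike peaks rank between replicates, but not every entry ranked alike in both. The relaxed lists of both replicates pooled and of each replicate held 30000 entries each, background included. Each entry has a summit, a signal value on the authors' own scale and a rank, which were used only within a list. The lists hold no read counts, so the depth of the libraries is unknown. The IDR set is derived from the replicate and pooled lists and is not an independent average of them.

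An IDR summit lay within 5 kb of a hairpin at 81 of the 198 loci, 40.9% with a Wilson 95% interval of 34.3 to 47.9%. Loci inside protein-coding genes had one in 61 of 142 cases, 43.0% (35.1 to 51.2%), and the other loci in 20 of 56 cases, 35.7% (24.5 to 48.8%). The difference was 7.24 percentage points, with a Newcombe interval of -8.02 to 21.2, so the 2 kinds of loci could not be told apart at this number of loci. These intervals cover counting error only, and loci are not replicates of a condition. Among the other loci, 11 of 29 inside noncoding RNA genes had an IDR summit, 37.9% (22.7 to 56.0%). Of the 27 not wholly inside any other gene 9 had one, 33.3% (18.6 to 52.2%). In the relaxed pooled list the order was the other way round. There 73.2% of the loci inside protein-coding genes and 76.8% of the other loci had a summit, a difference of -3.55 points (-15.6 to 10.6). Noncoding hosts had the highest share in that list, 25 of 29 loci or 86.2% (69.4 to 94.5%).

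The background was taken from 133880 positions every 1 kb of the main arms. Of all these positions 28.7% had an IDR summit within 5 kb, as did 33.0% of those inside protein-coding genes and 19.8% of those outside. In each of these the share of positions lay below the interval of the loci, although windows around clusters are longer than those around positions. For the pooled list the shares of positions were 67.9% over the arms, 70.8% inside and 61.9% outside protein-coding genes. The share of hosted loci, 73.2%, was thus close to its background in that list. For the other loci, at 76.8% (64.2 to 85.9%), the share of positions lay below the interval. Single hairpins among them stood at 75.0% (60.6 to 85.4%), an interval that holds the 61.9%. Among other RNA genes, an IDR summit lay within 5 kb of 68.6% of snoRNA loci, 57.1% of snRNA loci and 42.1% of tRNA loci. For protein-coding genes, which are longer, the share with one inside or within 5 kb was 54.0%. The microRNA loci, at 40.9%, were therefore near the tRNA loci and below the snoRNA loci.

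**Figure D1:**
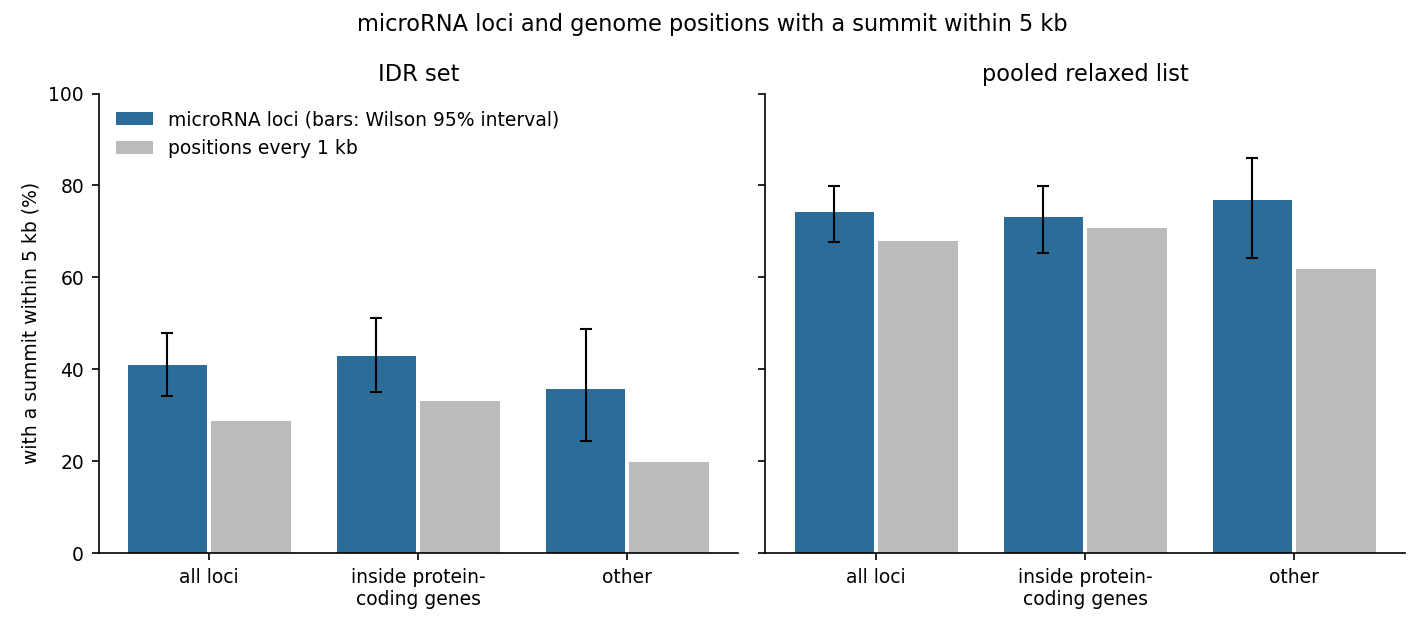
Share of microRNA loci (blue, with Wilson 95% intervals) and of positions every 1 kb (grey) that had a summit within 5 kb, in percent, for the IDR set (left) and the pooled relaxed list (right). In the IDR set the blue bars stand at 40.9, 43.0 and 35.7%, against 28.7, 33.0 and 19.8% for the positions.

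Nearness to promoters of protein-coding genes differed between loci and positions. A protein-coding start site (TSS) lay within 5 kb of 69.7% of the loci and of 53.9% of the positions. Loci with such a start had an IDR summit in 66 of 138 cases, 47.8% (39.7 to 56.1%), and loci without one in 15 of 60 cases, 25.0% (15.8 to 37.2%). Positions showed the same order, with 40.9% within 5 kb of a start and 14.4% farther away. Within these strata, hosted loci with a start nearby stood at 48.6% (39.4 to 57.9%) against 44.0% of like positions, inside the loci's own interval. Hosted loci without a start nearby stood at 24.2% (12.8 to 41.0%) against 16.3%. The other loci stood at 44.8% (28.4 to 62.5%) against 31.5% with a start nearby, and at 25.9% (13.2 to 44.7%) against 11.7% without. The last is the 1 stratum of 4 in which the share of positions fell below the interval of the loci, at 7 of 27 loci. How far start sites account for the shares was not tested beyond these strata.

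Closer windows gave fewer loci. An IDR summit lay within 500 bp of a hairpin at 14 loci, 7.07% against 4.26% of positions, within 1 kb at 22 loci, 11.1% against 7.94%, and within 2 kb at 36 loci, 18.2% against 14.4%. Loci of several hairpins, whose windows are longer, had an IDR summit within 5 kb in 14 of 27 cases (51.9%), and single hairpins in 67 of 171 cases (39.2%). Among single hairpins the shares were 42.5% (34.3 to 51.2%) inside protein-coding genes and 29.5% (18.2 to 44.2%) elsewhere, and this second interval holds the 19.8% of positions outside such genes. By arm the share ran from 35.0% on 2R to 51.3% on 2L, with wide intervals, and 1 of the 2 loci on chromosome 4 had an entry. A further 66 loci had a summit in the pooled list alone, with a median best rank of 12217. The remaining 51 loci had none in either list within 5 kb. The loci just inside the 5 kb limit were mir-2501 and mir-2281, whose nearest summits lay at 4908 bp (signal 534) and 4961 bp (signal 573). Just outside it were the let-7 cluster at 5180 bp (signal 488) and mir-4979 at 5392 bp (signal 144).

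In all, 134 IDR entries had their summit within 5 kb of a hairpin, 2.21% of the 6054, in 133 distinct intervals. The pooled list held 587 such entries, 1.96% of it. The signal of the 134 ran from 126 to 1751 with a median of 235, against 223 over all IDR entries, and 77 of them (57.5%) were stronger than the median of the set. Entries at loci in noncoding hosts had a median of 299 (24 entries), those in protein-coding hosts 230 (95 entries) and those outside genes 223 (15 entries). The entries near hairpins were thus about as strong as the rest of the set.

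Of the 134 entries, 103 (76.9%) ranked among the strongest 6054 of both replicate lists, against 69.2% of all IDR entries. A further 18 (13.4%) did so in replicate 1 alone and 13 (9.70%) in replicate 3 alone. Over all IDR entries the order of the replicates was reversed, with 12.8% in replicate 1 alone and 17.4% in replicate 3 alone. Entries at noncoding hosts reached both lists in 20 of 24 cases, and those in protein-coding hosts in 70 of 95. Of the 134, 2 overlapped no entry of the replicate 1 list and 2 none of the replicate 3 list. Over all IDR entries these counts were 112 and 107. Each IDR entry took the values of the strongest replicate entry that it overlapped. A weak summit beside a strong one could thus take the strong one's values. A mir-92a entry with a signal of 150, for example, took 404 in replicate 1 and 419 in replicate 3. For entries away from any start the shares in both lists were 75.4% near hairpins and 61.9% over the whole set, while at protein-coding starts they were 78.8% and 78.3%. Split this way, the order of the replicates was not reversed. Away from starts, replicate 1 alone and replicate 3 alone had 9.84 and 14.8% near hairpins and 10.9 and 26.5% over the whole set. At protein-coding starts they had 16.7 and 4.55% near hairpins and 15.3 and 5.93% over the whole set.

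The entry with the highest signal lay upstream of mir-279, at 3R:29214238-29214634, 1134 bp from the hairpin and 111 bp from the start of its primary transcript. Its signal was 1751 in the pooled data, rank 53, with 831 in replicate 1 and 926 in replicate 3. A second entry of the same locus, 2873 bp downstream of mir-996, had a signal of 1328 (706 in replicate 1 and 639 in replicate 3). It sat 19 bp from the start of the next gene, eEF1gamma, a translation elongation factor subunit, and its window held TATCGATA, the site of the promoter factor DREF. The strongest entry thus lay at the microRNAs' own promoter and the next at a neighbour's.

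Protein-coding hosts gave the next entries. mir-9382, in the transporter gene MRP, had a signal of 1294 (566 in replicate 1 and 738 in replicate 3), 207 bp from a start of MRP. mir-4972 lies in for, which encodes the foraging protein kinase, and had a signal of 1157 (445 in replicate 1 and 719 in replicate 3), 335 bp from a start of for. mir-4943, in CG5953, had a signal of 1128 (554 in replicate 1 and 574 in replicate 3), 397 bp from a start of its host. Each of the 3 summits was within 5 kb of its hairpin, at 2891, 4478 and 4783 bp. Those of mir-9382 and mir-4943 lay upstream of the hairpin, and that of mir-4972 lay downstream, at a start past the hairpin. mir-4943 also shares its seed, GAACACA, with mir-317, whose locus had 3 IDR summits.

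mir-4981, outside any gene, had a signal of 1048 (478 in replicate 1 and 569 in replicate 3) at 833 bp, with the nearest start, of CG14762, 661 bp from the summit. The entry of mir-282, at 3L:3249984-3250465, had a signal of 914 (363 in replicate 1 and 559 in replicate 3) and lay 308 bp from the start of lncRNA:CR43626. mir-955, outside any gene, had a signal of 887 (412 in replicate 1 and 482 in replicate 3), but this entry lay 121 bp from the start of CG14968. The entry of mir-92a, 225 bp from a start of jigr1, had a signal of 829 (404 in replicate 1 and 419 in replicate 3), and mir-92a and mir-92b act in neural progenitors and muscle. mir-9a, which limits the number of sense organ precursors, had a signal of 821 (323 in replicate 1 and 495 in replicate 3), 4302 bp upstream and 361 bp from the start of lncRNA:CR44676. Of the 10 entries, 9 lay within 500 bp of an annotated start, and replicate 3 had the higher value in 9 of 10. The values of each replicate are on its own list's scale, so this count is no measure of stronger binding in replicate 3. Ranks within the replicate lists went both ways. The mir-279 entry ranked 50 in replicate 1 and 64 in replicate 3, and the mir-9a entry 474 and 308.

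**Figure D2:**
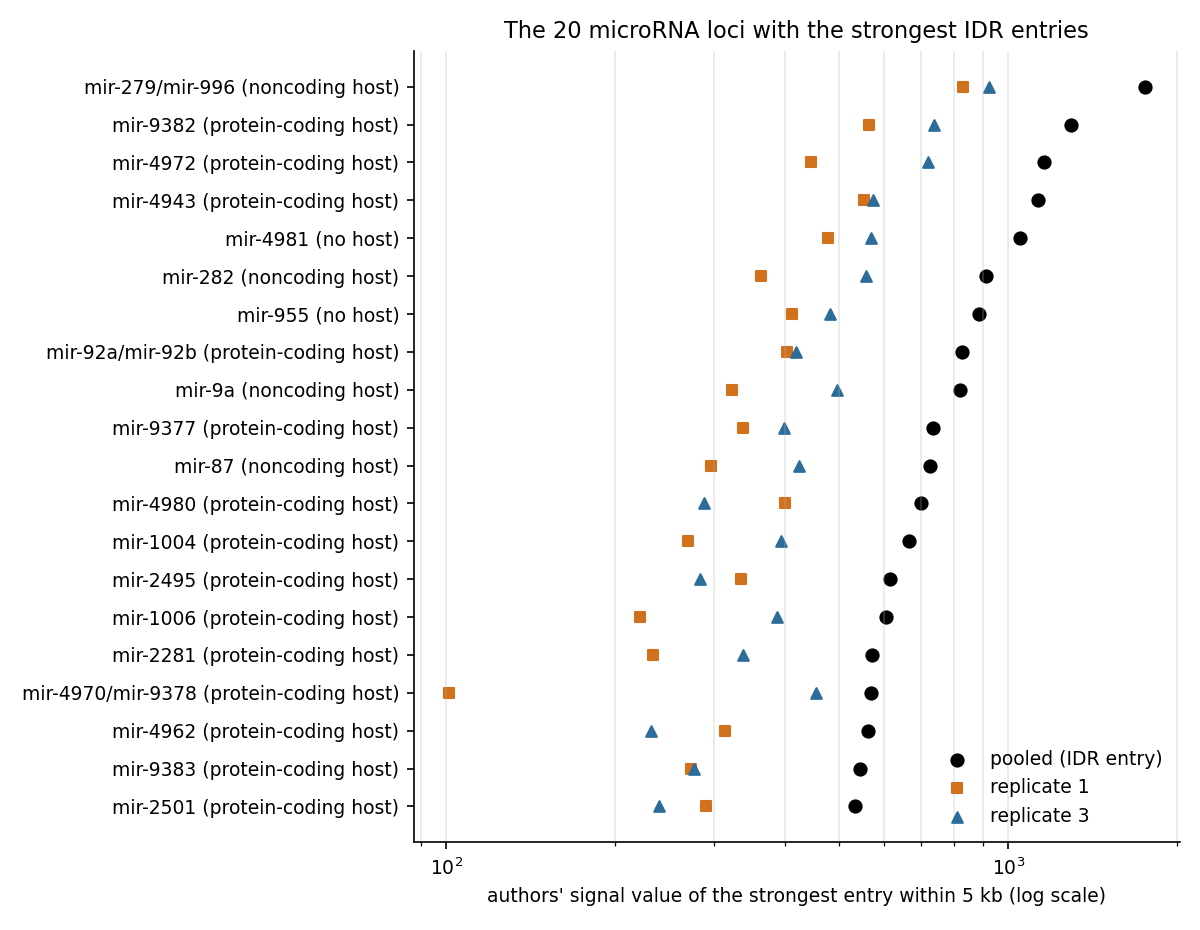
The authors' signal value (log scale) of the strongest IDR entry within 5 kb of the hairpins, for the 20 loci with the highest values, in the pooled data (black circles), replicate 1 (orange squares) and replicate 3 (blue triangles). The mir-279/mir-996 locus, in a noncoding host, has the highest value, 1751, with 831 in replicate 1 and 926 in replicate 3.

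Of the 14 loci with a summit within 500 bp of a hairpin, 1 had it inside the hairpin, mir-4962 in an intron of Tlk (signal 230). The others near protein-coding hosts were mir-92a, mir-9377, mir-9378, mir-2491, mir-4949, mir-966, mir-303, mir-4918 and mir-2282, at 90 to 421 bp and with signals from 132 to 829. Those elsewhere were mir-2496 (317), mir-275 (285), mir-34 (229) and bantam (215). Of these 14 entries, 6 lay within 500 bp of a protein-coding start, and the other 8, bantam, mir-275 and mir-34 among them, lay at no annotated start. The replicates were uneven for some of them. mir-9378 had 101 in replicate 1 and 455 in replicate 3, while mir-275 had 213 in replicate 1 and 49.0 in replicate 3.

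The locus with the most IDR summits was mir-2496 on the X chromosome, with 5, at signals of 134 to 354. The nearest protein-coding starts were those of PIG-K for 3 of them and of east for the other 2, and 3 of the 5 were within 500 bp of a protein-coding start. The loci mir-275/mir-305, mir-92a/mir-92b, mir-4949 and mir-4968 had 4 each. At mir-4968, in an intron of Mob2, none of the 4 (signals 140 to 336) lay at a start. In total 33 loci had more than 1 IDR summit.

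By place, 66 of the 134 entries (49.3%) lay within 500 bp of a protein-coding start, against 44.3% of all IDR entries. A further 7 (5.22%) lay at the start of a noncoding RNA gene only, against 2.59%, and 61 (45.5%) at no start, against 53.1%. The 7 at noncoding starts had a median signal of 330, those at protein-coding starts 238 and those at no start 231. At loci in protein-coding hosts, 53 of 95 entries lay at a protein-coding start, and 18 of these were at the start of a gene other than the host. At loci in noncoding hosts, 6 of 24 lay at a noncoding start only and 5 at a protein-coding start.

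Along the strand of the hairpin, 86 entries lay upstream, 47 downstream and 1 within it, at a median distance of 2459 bp. At noncoding hosts 20 were upstream and 4 downstream. At protein-coding hosts 59 were upstream and 35 downstream, and outside genes 7 were upstream and 8 downstream. Counted from the 5′-most hairpin of a locus, the density in the 1 kb just upstream was 0.125 summits per kb per locus at the other loci and 0.0563 at the loci inside protein-coding genes. In the 1 kb just downstream it was 0.0357 at the other loci and 0.0493 at the loci inside protein-coding genes, against a mean of 0.0452 over the main arms. The value of 0.125 rests on 7 summits at 56 loci and occurred again 8 to 9 kb upstream, and hosted loci reached 0.120 at 5 to 6 kb upstream. The bin just upstream therefore did not stand out. Of the 166 hairpins inside a protein-coding gene, 136 lie on its strand, and for these the host's first start is upstream.

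**Figure D3:**
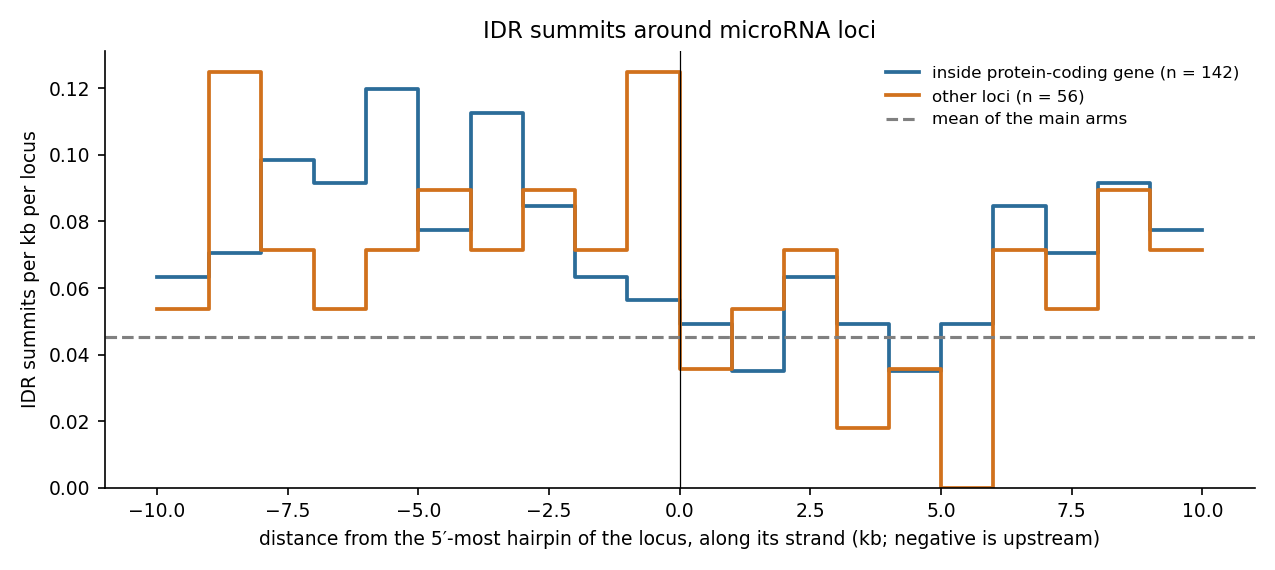
IDR summits per kb per locus in 1 kb bins, by distance along the hairpin's strand from the 5′-most hairpin (negative is upstream), for 142 loci inside protein-coding genes (blue) and 56 other loci (orange). The other loci reach 0.125 both in the bin just upstream and 8 to 9 kb upstream, the hosted loci reach 0.120 at 5 to 6 kb upstream, and the dashed line marks the mean of the main arms, 0.0452.

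Entries within 500 bp of any start of a host on the hairpin's strand were counted at any distance from the hairpin, a comparison chosen after the other values were seen. Such an entry was found at 48 of 128 protein-coding hosts, 37.5% (29.6 to 46.1%). At 24 of the 48 the strongest such entry lay over 5 kb from the hairpin. Some of these hosts, spi, bun and CG6231 among them, also had a weaker start entry within 5 kb. At 3 of the 48, for, Oda and tacc, such entries lay only at starts downstream of the hairpin, whose transcripts do not include it, which leaves 45 hosts, 35.2% (27.4 to 43.8%). Over all protein-coding genes the share was 23.1%. The hosts are longer, with a median of 14094 bp against 2166 bp, and the part of length in the difference was not tested. Of 37 noncoding hosts 8 had such an entry, 21.6% (11.4 to 37.2%), against 9.21% of all noncoding RNA genes. The lengths and numbers of starts of the noncoding hosts were not compared, and their part in this difference was not tested.

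Among protein-coding hosts the strongest start entry was that of spi, which encodes the epidermal growth factor receptor ligand Spitz and holds mir-2a-1, mir-2a-2 and mir-2b-2. Its entry had a signal of 1344 (675 in replicate 1 and 681 in replicate 3) and lay 5522 bp from the nearest of these hairpins. Btk, a tyrosine kinase gene that holds mir-2b-1, had a start entry of 1057 (361 in replicate 1 and 694 in replicate 3), 19159 bp from its hairpin. PAPLA1, a phospholipase gene that holds mir-4984, had one of 999 at 18045 bp. These 3 starts lay outside the 5 kb window, and neither mir-2b-1 nor mir-4984 had an IDR summit within it. The spi locus had one, with a signal of 280, 297 bp from another start of spi. E2f1, the cell cycle factor that hosts mir-11 and mir-998, had a weak one of 133 at 10769 bp.

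The 8 noncoding hosts with a start entry included those of mir-279 and mir-282, already given. lncRNA:Hsromega, the heat shock transcript that holds mir-4951, had a start entry with a signal of 490, 20374 bp from the hairpin. lncRNA:CR43650, the host of mir-8, had one of 330 (211 in replicate 1 and 127 in replicate 3). asRNA:CR46194, over mir-281, had one of 322. Weak ones stood at the hosts of mir-10 (141, 7066 bp away), of mir-275 (134), and of mir-bft (131, 17520 bp away), the annotation's name for mir-263a. These last 3 were near the lowest signal of the set.

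No member of the early and axial patterning list had an IDR entry within 5 kb, 0 of 12 hairpins and 0 of 4 loci (Wilson interval 0.00 to 49.0%), against 40.8% of all hairpins and 40.9% of all loci. The interval of these 4 loci holds the share of all loci. The same is true of each microRNA role list below, and hairpins of 1 cluster share their entries. The mir-309 cluster, 8 hairpins from mir-309 to mir-6-3 that clear maternal messengers at the start of zygotic transcription, had no pooled entry within 5 kb either. mir-10, in the Antennapedia complex, had its best pooled entry at rank 7053 with a signal of 108, outside the IDR set. mir-iab-4 and mir-iab-8, made from opposite strands of 1 site in the bithorax complex, had theirs at rank 10644 (signal 71.5). mir-993 had its best at rank 11671 (signal 65.0). The start entry of the mir-10 host, at 7066 bp, was the only IDR entry found at a host start for this list.

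In the nervous system and sense organ list, 6 of 9 hairpins had an IDR entry, at 5 of 8 loci (62.5%, 30.6 to 86.3%, against 40.9% of all loci). Beside mir-279, mir-996 and mir-9a, these were mir-276a (181; 119 in replicate 1 and 69.0 in replicate 3), mir-7 (148) and mir-263b (131). mir-276a acts in olfactory memory, mir-7 in photoreceptor differentiation, and mir-263b, with mir-bft, protects sense organ cells from death. The remaining ones had pooled entries only. mir-bft ranked 8423, mir-276b 17763, and mir-124, which marks neurons, 21573. The best ranks of this list thus ran from 53 to 21573.

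In the muscle list 1 of 3 loci had an IDR entry (33.3%, 6.15 to 79.2%, against 40.9% of all loci), the jigr1 pair mir-92a and mir-92b, 2 of the 4 hairpins. The textbook muscle microRNAs mir-1 and mir-133 had pooled entries at ranks 14254 (signal 53.9) and 16754 (signal 46.4).

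In the growth and cell death list 8 of 11 hairpins had an IDR entry, at 4 of 7 loci (57.1%, 25.0 to 84.2%, against 40.9% of all loci). Bantam, which promotes growth and represses the death gene hid, had 3 within 5 kb, with signals of 444, 415 and 215. Its strongest, at 3L:644198-644440, had 150 in replicate 1 and 288 in replicate 3, and all 3 lay away from annotated starts. The cluster of mir-2c, mir-13a and mir-13b-1 had a best signal of 313 (103 in replicate 1 and 210 in replicate 3). The spi cluster of mir-2a-1, mir-2a-2 and mir-2b-2 had 280, and mir-11 had 254. The mir-11 entry lay downstream of the hairpin, 132 bp from a start of a gene other than its host, InR. mir-14, a suppressor of cell death, had its best pooled entry at rank 6589 and mir-2b-1 at rank 7758, while mir-13b-2 had none within 5 kb. By seed, AUCACAG was carried by 14 hairpin genes, mir-308, mir-5 and the mir-6 copies included, of which 8 had an IDR entry, at 4 of 7 loci. All 6 genes with the seed AUUGCAC, mir-92a, mir-92b and mir-310 to mir-313, had one, at both of their loci, and 2 of the 3 with GACUAGA did. The entry at the mir-310 locus lay 441 bp from a start of another gene, qsm. For AUCACAG, hairpins with one seed thus included loci with and without an entry.

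In the hormone timing and metabolism list 6 of 10 hairpins had an IDR entry, at 4 of 6 loci (66.7%, 30.0 to 90.3%, against 40.9% of all loci). mir-33, in an intron of the sterol regulator gene SREBP, had a best signal of 501 (248 in replicate 1 and 249 in replicate 3). mir-8, which acts on insulin signalling and growth, had 439 (151 in replicate 1 and 297 in replicate 3), and mir-275 with mir-305 had 285. mir-34, known for its part in ageing, and mir-277, which acts on amino acid breakdown, had 261 (184 in replicate 1 and 84.9 in replicate 3). mir-278, which acts in energy balance, had a pooled entry only, at rank 8210. The let-7 cluster of mir-let7, mir-100 and mir-125, driven by ecdysone at the end of larval life, had no pooled entry within 5 kb, but an IDR summit with a signal of 488 lay 5180 bp away.

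Among the genes of microRNA production and action, 8 of 10 had an IDR summit inside or within 5 kb, against 54.0% of all protein-coding genes. No interval was computed for these 10 genes, so a difference from all protein-coding genes was not shown. The partner of the nuclear RNase Drosha, pasha, had the highest signal, 1397 (631 in replicate 1 and 767 in replicate 3), 1806 bp outside the gene. loqs, the partner of Dicer-1, had 859 (396 in replicate 1 and 455 in replicate 3), 1740 bp outside, and the trimming nuclease gene Nbr had 411. Of the 8, 1 had its strongest entry at its own start, AGO1, which encodes the protein that carries microRNAs (326, 110 bp from a start). Dcr-1 and gw had no pooled entry within 5 kb.

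**Figure D4:**
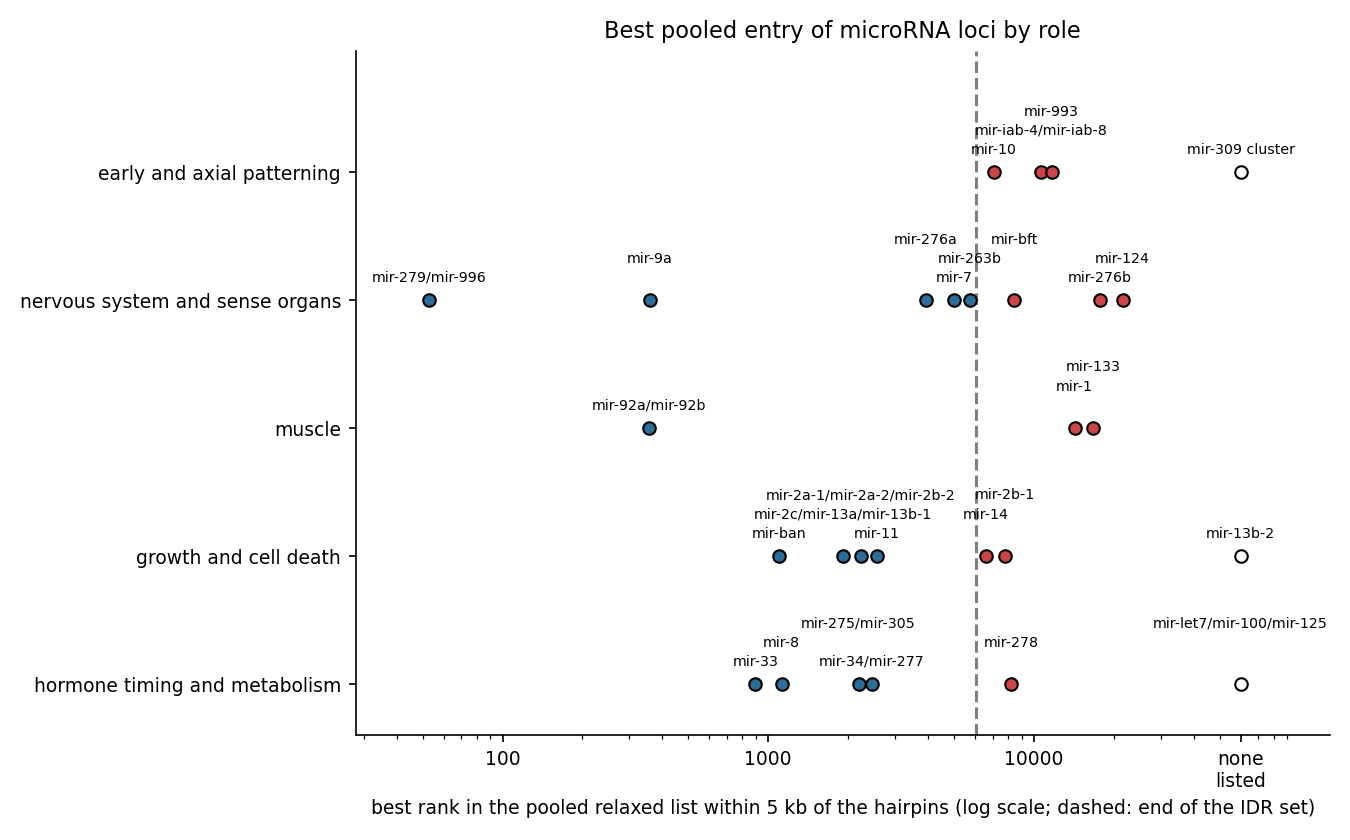
Best rank in the pooled relaxed list within 5 kb of the hairpins (log scale) for the microRNA loci of each role list, 1 point per locus. Blue points had an IDR summit, red points a pooled summit only and white points none, and the dashed line is the end of the IDR set at 6054. The patterning loci all lie right of the line, from 7053 on.

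Sequence words were searched on both strands of the window that reaches 100 bp to each side of a summit. TAATCC stood in 7 of the 134 windows near hairpins, 5.22% (2.55 to 10.4%), against 6.74% of all IDR windows. The windows that held it were those of mir-9382, mir-282, mir-4980, mir-4982, mir-4910, mir-4911 and mir-9371. TATCGATA stood in 5.22% against 3.63%, and GGTCACAC, a core promoter word, in 4.48% (2.07 to 9.42%) against 2.59%. TATAAA stood in 29.1% (22.1 to 37.3%) against 35.3%. These shares of all IDR windows lay inside the intervals of the windows near hairpins. CAGGTA, the core of the site of the early activator Zelda, stood in 11 windows, 8.21% (4.65 to 14.1%), against 3.98% of all IDR windows, which lay below the interval. The 11 windows stood at 9 loci, so they are not all independent, and a match of letters is no measure of binding. The windows near hairpins were 62.1 ± 8.37% A and T (SD, n = 134), against 64.1 ± 7.17% over all IDR windows (SD, n = 6054).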

How the data were processed

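ChIP-seq of 2 libraries from Bcd-eGFP embryos was used as peak lists. The authors' lists in dm6, per the deposited file descriptions, were an optimal IDR set, a relaxed list of the pooled replicates and 1 for each replicate. The deposited signal value per peak is a score on the caller's own scale, used only within a list. The deposited −log10 q value is mostly tied and was not used to rank. The other deposited column used was the summit offset. The software behind the peaks and alignments is not given in the sources used here, and dm3 lists were not used. The labels call the libraries biological replicates and give each its own biosample.

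Hairpins and genes came from the Ensembl annotation, release 115, without mature arms listed as genes and without transposons. A summit was near a hairpin within 5 kb and at a start within 500 bp. An entry of a replicate list was matched by an overlap of at least 1 bp, and the strongest of those that overlapped was taken. Shares have Wilson 95% intervals and differences Newcombe intervals. Counting steps were tested on simulated summits. Python 3.11.15, pandas 2.3.3 and scipy 1.17.1 were used. Named loci were those of the 10 entries with the highest signal, those with a summit within 500 bp, the 5 with the most summits and the role lists. The members, lists and settings were chosen with earlier results of these data known. No test between conditions was possible with 1 group.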

Additional observations from a re-analysis of the deposited data

How the results depend on the processing

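With the pooled relaxed list in place of the IDR set, 147 loci had a summit, 73.2% of those inside protein-coding genes and 76.8% of the others, a difference of -3.55 points. A window of 10 kb gave 127 loci, 66.9% inside protein-coding genes and 57.1% elsewhere, and 2 kb gave 36 loci, 16.2% inside and 23.2% elsewhere, a difference of -7.02 points. The IDR entries above the set's median signal gave 28.2% for loci inside protein-coding genes. A wider selection finds more loci and a narrower one fewer, and why the sign of the difference changed was not tested. The sign of the difference between the loci inside protein-coding genes and the others thus depends on the list and the window, and its interval held 0 under every setting run. Counting hosts on the hairpin's strand only moved it to 13.5 points (-0.618 to 26.5). With the strongest 6054 entries of 1 replicate alone, the count was 78 to 82 loci, the shares 40.1 to 43.0% inside and 37.5% elsewhere, and the difference 2.64 to 5.46 points. Chaining hairpins up to 1 kb, counting each alone or accepting any overlap kept the direction and gave 3.87 to 7.87 points. Counting only host starts upstream of the hairpin, an alternative added after seeing the data, gave 35.2% of protein-coding hosts in place of 37.5% and the same 21.6% of noncoding hosts. No paired analysis was possible because both libraries belong to 1 group. Lists without read counts give no depth, so an unbound locus cannot be told from an undetected one.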

Other observations

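The largest cluster, 12 hairpins from mir-972 to mir-979 on the X chromosome, has only mir-978 and mir-979 inside Grip84, on its opposite strand. The cluster had 1 IDR summit, 3944 bp downstream of mir-979 and 111 bp from a start of Grip84. The signal there was 326 (133 in replicate 1 and 194 in replicate 3). The cluster from mir-310 to mir-992, 7 hairpins, had 1 at 1179 bp downstream, 441 bp from a start of the gene qsm. That entry had a signal of 222 (84.9 in replicate 1 and 141 in replicate 3). The cluster from mir-959 to mir-964, 6 hairpins in an intron of DIP-theta, had no pooled entry within 5 kb. The cluster of mir-982, mir-303 and mir-984, 5 hairpins on the X chromosome, had 1 at 90 bp, at a start of CG3626, with a signal of 164. The cluster of mir-9c, mir-306, mir-79 and mir-9b in the checkpoint kinase gene grp had no IDR summit within 5 kb, and its best pooled entry ranked 21253. The start of grp, 12921 bp from the hairpins, had an IDR entry with a signal of 231 (66.7 in replicate 1 and 171 in replicate 3). mir-375, in lncRNA:CR45345, had 3 IDR summits within 5 kb, the strongest with a signal of 357 (119 in replicate 1 and 238 in replicate 3) at 701 bp. Sxl, the sex determination gene that holds mir-4956, had a start entry with a signal of 409 (197 in replicate 1 and 219 in replicate 3), 10845 bp from the hairpin.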
